A study of Mus musculus with 8 samples.

Results

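The tumour necrosis factor (TNF) ligand and receptor superfamilies were examined as 38 genes, 17 for ligands and 21 for receptors, out of 21896 protein-coding genes. The members were chosen by name, and a called ATAC-seq region was counted for a gene when 1 of its summits lay in the gene body or within 20 kb of it. ATAC-seq finds accessible DNA as the places where a transposase can cut and add adapters. All 38 genes had at least 1 region in at least 1 list, against 76.4% of all protein-coding genes, and together they held 197 of the 60835 regions in the union of the lists. A total of 28 regions lay in the windows of more than 1 member and were counted once in every total.

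Ligands of the TNF superfamily are mostly membrane-bound or shed proteins that act as trimers, and their receptors sit on the surface of lymphoid, myeloid and stromal cells. Receptors with a death domain, such as Fas and TNFR1, can signal for cell death or for NF-κB, and the others recruit TRAF adaptor proteins and act largely as costimulators. Group 2 innate lymphoid cells (ILC2s), innate producers of type 2 cytokines, are known to respond to the ligand TL1A through DR3, to carry GITR and to use OX40 ligand in their exchange with T cells. E proteins such as E47 bind DNA at E-boxes, and Id proteins block them.

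All 4 groups were ILC2s from the thymus of plck-Id1 transgenic mice on a C57BL/6 background. The Id1 transgene, which opposes E proteins, was therefore present in the control cells too. The cells had been stimulated with the cytokines IL-33, IL-25 and IL-7 and an agent that the design text writes as ILC2, transduced with the MIGR1 retrovirus carrying either only GFP or E47-ER and GFP, sorted for GFP, expanded in the same agents, and given 4-hydroxytamoxifen, the drug that activates the fusion protein, for 4 or 16 hours. E47-ER is a fusion of the E protein E47 with an estrogen receptor part. Each group had 2 samples, and the labels do not say whether these came from separate animals or cultures. The groups are called E47 and GFP at 4 h and 16 h. The free-text descriptions, in all groups, give replicate 1 the plain vector and replicate 2 the vector with E47-ER, against the titles and transduction labels used here. If the descriptions were right, every list would pool both vectors.

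Each group was represented by 1 peak list made by the authors from its 2 samples, so no replicate spread could be measured and no groups could be tested. The lists held 40649 to 52846 regions, and the longer list of its time was that of E47 at 4 h and of GFP at 16 h. E47-only regions of a time are those that no GFP region of the same time overlapped, and GFP-only regions are defined likewise. A region that is missing from a list may have been accessible there without passing the peak caller's threshold. In bulk samples, fewer open cells and less opening per cell cannot be told apart. Read depth was not in the files used here. All 12 ILC2 marker genes had a region in every list, and the promoters of 7 of the 10 with a promoter entry were called in every list. Of the marker lists for other cells, the promoters called in every list numbered 0 of 5 for ILC3 and Th17 cells, 0 of 7 for T cells, 1 of 4 for B cells, 1 of 7 for NK cells and ILC1s, 0 of 4 for myeloid cells, 1 of 6 for mast cells and basophils, and 0 of 5 for epithelial and stromal cells. Cd8a, Cd8b1, Ms4a1, Ncr1, Klra8, Lyz2, Fcer1a, Mcpt4 and Krt5 had no region in any list.

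A set of 3 neighbouring ligand genes had starts that were called with E47 and not with GFP. The start sites of Tnf and of Lta were covered by a region in both E47 lists and in neither GFP list, and the start site of Ltb by a region in E47 at 4 h alone. Their promoter sequences are shown because they hold the E-boxes at these starts. They run 5′ to 3′ from 250 bases before to 50 bases after the start, are taken from RefSeq (GRCm38.p6, the assembly of mm10), and lie at chr17:35201958-35202257 (minus strand) for Tnf, chr17:35205302-35205601 (minus strand) for Lta and chr17:35194257-35194556 (plus strand) for Ltb. Capitals mark every CANNTG, the E-box. For contrast, the promoter inside Tnfrsf9 at chr4:150927749-150928048 (plus strand) is shown, which was called in all 4 lists. The other Tnfrsf9 window, at the gene start (chr4:150919905-150920204), was called in no list. The window shown was picked by hand. Among member windows called in all lists, it and that of Tnfrsf18 hold the most E-boxes, while those of Tnfrsf25 and Tnfsf8 hold none.
Tnf: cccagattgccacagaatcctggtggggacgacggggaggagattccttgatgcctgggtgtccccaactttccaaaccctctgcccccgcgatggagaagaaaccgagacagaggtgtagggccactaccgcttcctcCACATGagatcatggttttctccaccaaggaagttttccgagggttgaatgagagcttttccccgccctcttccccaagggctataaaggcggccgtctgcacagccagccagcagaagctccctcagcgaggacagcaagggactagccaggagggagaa
Lta: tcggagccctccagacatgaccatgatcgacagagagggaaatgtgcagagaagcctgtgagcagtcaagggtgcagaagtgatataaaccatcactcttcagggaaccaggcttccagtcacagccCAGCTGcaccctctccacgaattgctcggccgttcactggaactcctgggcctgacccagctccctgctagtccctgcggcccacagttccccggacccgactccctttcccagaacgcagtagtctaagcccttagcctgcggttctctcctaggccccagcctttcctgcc
Ltb: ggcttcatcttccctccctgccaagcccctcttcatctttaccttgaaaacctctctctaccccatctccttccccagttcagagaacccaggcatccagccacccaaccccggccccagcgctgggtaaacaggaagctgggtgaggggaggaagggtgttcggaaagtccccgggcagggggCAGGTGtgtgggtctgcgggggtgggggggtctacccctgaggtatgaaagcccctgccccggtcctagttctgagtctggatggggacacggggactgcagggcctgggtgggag
Tnfrsf9: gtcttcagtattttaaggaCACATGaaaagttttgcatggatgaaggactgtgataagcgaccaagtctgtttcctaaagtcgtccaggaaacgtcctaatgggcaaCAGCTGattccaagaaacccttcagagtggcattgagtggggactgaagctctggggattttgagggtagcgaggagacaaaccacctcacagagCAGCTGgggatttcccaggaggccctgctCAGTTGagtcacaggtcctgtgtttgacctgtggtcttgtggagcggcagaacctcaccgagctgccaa

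The Lta window holds a single E-box, CAGCTG, 123 bases before the start. The E-box of Ltb is CAGGTG, 66 bases before the start, and that of Tnf is CACATG, 111 bases before it. The Tnfrsf9 window holds 4 E-boxes, among them CAGCTG at 143 and at 48 bases before the start. E-boxes thus occurred in promoters called with both vectors as well as in those called with E47 alone. A promoter entry was found for 30 of the 38 members, 34 windows in all. CAGCTG was in 7 of the 34 (20.6%) against 16.3% of 32851 promoters of the same length, CACCTG or its reverse CAGGTG in 10 (29.4%) against 20.2%, and CANNTG, which includes both, in 28 (82.4%) against 72.3%. CAGCTG and CANNTG read the same on both strands. A match is a stretch of letters and not a measured site.

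Over the whole superfamily, regions called with E47 alone at both times outnumbered those called with GFP alone. Of the 197 regions, 13 were E47-only at both times (6.6%, 95% exact binomial interval 3.56 to 11.0) and 1 was GFP-only at both times (0.508%, 0.0129 to 2.80). Over all 51403 regions within 20 kb of a protein-coding gene the shares were 3.33% and 4.18%, so the order was the other way. The 13 regions lay at 11 members and at 9 separate places in the genome, since Tnf, Lta and Ltb share theirs. By gene, 11 of 38 members (28.9%) had such a region, against 12.9% of all genes with a region and against 15.9% of other genes with as many regions as each member. For GFP-only regions at both times it was 1 of 38 members (2.63%), against 15.7% of all genes and 19.6% of other genes with as many regions. Intervals cover counting error only, and regions of a locus are not independent.

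**Figure D1:**
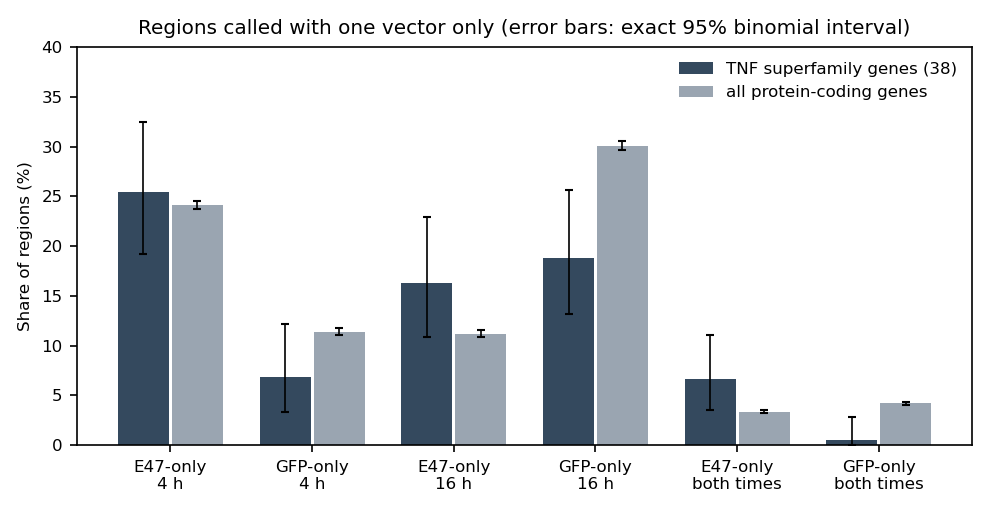
Share of regions (%, y axis) called with E47 alone or with GFP alone at 4 h, at 16 h and at both times, for the 38 superfamily genes (dark bars) and for all protein-coding genes (grey bars), with exact 95% binomial intervals. At both times the superfamily share is 6.6% for E47 and 0.508% for GFP, against 3.33% and 4.18% for all genes.

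The ligands carried most of these regions. Of 17 ligand genes, 8 (47.1%) carried at least 1 of the 13, against 16.9% of other genes with as many regions, and none had a GFP-only one, against 20.3%. Tnf, Lta and Ltb count as 3 of the 8 genes but share the same 3 regions. Of 21 receptor genes, 3 (14.3%) had an E47-only region, against 15.1%, and 1 (4.76%) a GFP-only one, against 19.0%. As shares of regions, 9 of 80 ligand regions (11.2%, interval 5.28 to 20.3) and 4 of 117 receptor regions (3.42%, 0.939 to 8.52) were E47-only at both times. The intervals of ligands and receptors overlap, and the difference between them was not tested. It also depended on list length. With all lists cut to the same length, as described below, the only ligand genes with such a region were Fasl, Tnfsf11 and Tnfsf10. The only receptor genes with one were then Cd27 and Tnfrsf13c.

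The regions that were E47-only at both times were mostly weak. Strength here means where a region ranks in its list by −log10 p, in percent, with the weakest at 0. Pairs of values are given for 4 h and then 16 h. The 13 regions lay between percentiles 1.87 and 51.5 at 4 h and between 4.11 and 61.7 at 16 h, and only 1 of them, at Cd27, lay above the median of both lists (7.69%, against 5.27% of the 1707 such regions of other genes). Their median strength over both lists was 15.6, against 21.3 at other genes. They were also narrow, with a median width of 247 bp against 347 bp for such regions of other genes and 640.5 bp for superfamily regions called in all 4 lists.

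Most of the 13 depended on the length of the E47 list at 4 h. When all lists were shortened to 40649 regions by −log10 p, 8 of the 13 dropped out of the E47 list at 4 h, among them all 3 at Tnf, Lta and Ltb, and 5 stayed, at Fasl, Cd27 and Tnfsf11. At equal length, 7 of 166 superfamily regions were E47-only at both times, at Fasl, Cd27, Tnfsf11, Tnfrsf13c and Tnfsf10. That share was 4.22% against 4.50% for all genes, and with each region given to its nearest gene alone it was 5.08% against 4.50%. The low share of GFP-only regions was still there, at 1.2% against 4.57%. No region was lost from the E47 list at 16 h, which is the shortest.

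**Figure D2:**
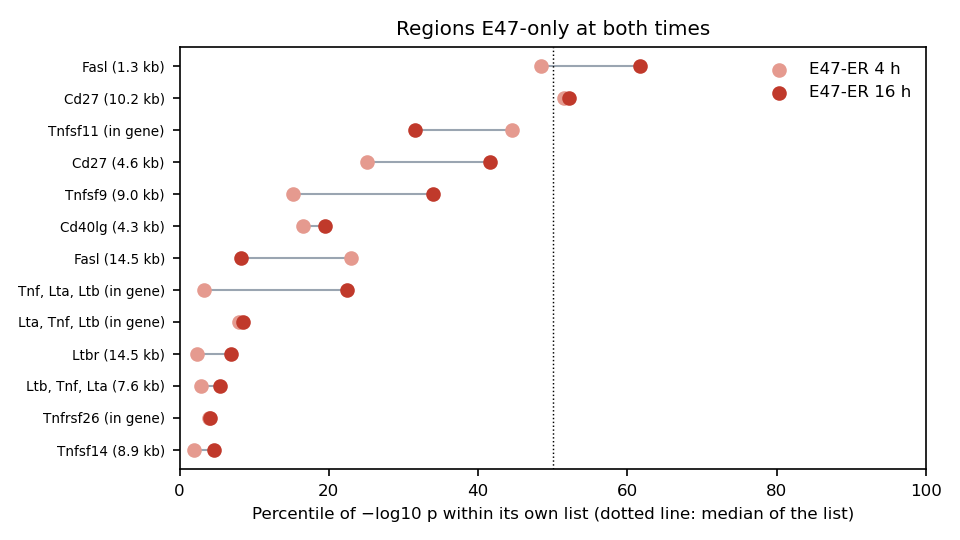
The 13 regions that were E47-only at both times, each placed by the percentile of its −log10 p in the E47 list at 4 h (pale points) and at 16 h (dark points). Labels name the members whose windows hold the region and the distance to the nearest of them. Only the region at Cd27 that lies inside Vamp1 lies right of the dotted median in both lists.

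Marker genes of ILC3s and Th17 cells had more regions in E47 than in GFP. The list of 6 genes held 14 regions in E47 and 6 in GFP at 4 h, and 13 and 8 at 16 h, with 5 E47-only regions and no GFP-only region at both times, although the promoters of its 5 genes with an entry were called in no list. Within 20 kb of any gene the lists held 42772 regions in E47 and 36582 in GFP at 4 h, and 35112 and 45069 at 16 h. At both times, 3.33% of the regions of all genes were E47-only and 4.18% GFP-only. Lta and Ltb are genes that ILC3s are known to express. The other marker lists held, in the order E47 and GFP at 4 h and then at 16 h, 35, 37, 35 and 41 regions for T cells, 21, 16, 15 and 19 for B cells, 24, 20, 22 and 21 for NK cells and ILC1s, 25, 21, 20 and 28 for myeloid cells, 11, 7, 6 and 10 for mast cells and basophils, and 17, 15, 16 and 13 for epithelial and stromal cells. ILC2 marker genes held between 87 and 115 regions a list, and 3 were called with E47 alone and 8 with GFP alone at both times. The part of ILC3s in the superfamily result was not tested.

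Tnf encodes the cytokine TNF, Lta encodes lymphotoxin α, and Ltb encodes lymphotoxin β, which anchors lymphotoxin α to the cell membrane. The Tnf window held 13 regions in E47 and 6 in GFP at 4 h, and 11 and 9 at 16 h. Lta had the same counts, and Ltb had 12, 6, 10 and 7 in that order. At 4 h, 7 of the 13 Tnf regions were E47-only and none of the 6 was GFP-only. At 16 h, 4 were E47-only and 2 GFP-only. In both E47 lists the locus thus had more regions than in the GFP list of its time. At equal list length, the 3 regions there that were E47-only at both times dropped out of the E47 list at 4 h.

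Of the 15 regions in the union at Tnf, 6 were in all 4 lists, 3 were E47-only at both times and none was GFP-only at both times. Among the 80 other genes with 15 regions, 2.50% had 3 or more that were E47-only at both times, and among others with 14 regions, the number at Ltb, 5.94%. These genes were named because they held such regions, so these shares describe them and are not a test. The region over the Tnf start, chr17:35201937-35202174, had fold enrichments (the authors' ratio over local background, the highest of its summits) of 3.13 at 4 h and 4.25 at 16 h, with strengths of 3.22 and 22.5. The region over the Lta start, chr17:35204958-35205624, had folds of 3.43 and 3.59 and strengths of 7.94 and 8.51. These are low values, near the bottom of the E47 list at 4 h.

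The third region, chr17:35186693-35187019, lay inside Lst1, 7579 bp from Ltb, with folds of 3.98 and 4.31. The gap to the nearest GFP region was 165 and 163 bp for the Lta start, 89 and 110 bp for the Lst1 region, and 1127 and 261 bp for the Tnf start, at 4 h and 16 h. The GFP list at 16 h held a region of its own inside Tnf, chr17:35201062-35201675, with a fold of 4.03. At the Ltb start, the region of E47 at 4 h (chr17:35194312-35194693) had a fold of 2.90 and the lowest strength at the locus, 0.512, and E47 at 16 h had a region of its own further into the gene (chr17:35194875-35195130) with a fold of 4.22. The region with the highest folds at the locus, 4526 bp from Lta at chr17:35210057-35210711, was in all lists, with folds of 13.7 and 13.2 with E47 and of 10.05 and 14.1 with GFP. The vector-only regions at these gene starts were thus weak and stood beside stronger regions that all lists held.

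**Figure D3:**
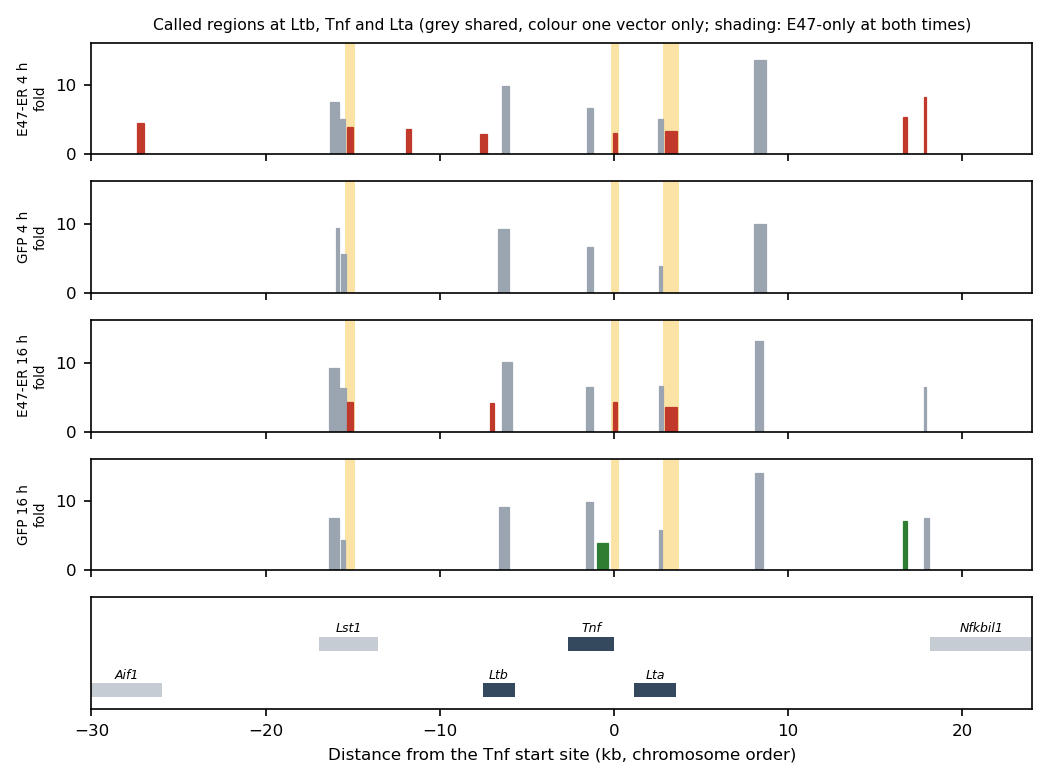
Called regions at Ltb, Tnf and Lta by distance from the Tnf start site (kb, x axis), with the authors' fold enrichment (y axis) in each of the 4 lists and the protein-coding genes below. Grey bars were called with both vectors at that time, coloured bars with E47 (red) or GFP (green) alone, and shading marks the 3 regions that were E47-only at both times.

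Few promoters were covered in both E47 lists alone. Of the 34 member windows, 16 (47.1%) were covered by a region in all 4 lists, 11 (32.4%) in none, and 2 (5.88%), those of Tnf and Lta, in both E47 lists alone. The same share over 21262 promoters of protein-coding genes was 0.282% (60 windows), and 48.2% were covered in all 4 lists. The windows of Tnf and Lta belong to 1 locus, and both of their regions dropped from the E47 list at 4 h at equal list length. A window of Tnfrsf19, which encodes the receptor TROY, was covered in both GFP lists alone. This was 2.94% of the 34 member windows, against 0.277% of promoters of protein-coding genes (59 windows). Its region, chr14:61046242-61046838, was nevertheless called in all 4 lists and reached into the window only in the GFP lists. The folds of this region were 8.58 and 7.92 with E47 and 7.49 and 14.1 with GFP. The promoters of Tnfrsf1a, which encodes the TNF receptor TNFR1, and of Tnfrsf13c, which encodes the BAFF receptor, were covered in every list except GFP at 4 h. At Tnfrsf1a the folds were 7.28 in E47 at 4 h, 6.49 in E47 at 16 h and 8.36 in GFP at 16 h. At Ltbr, the lymphotoxin β receptor gene, the promoter was covered in both 16 h lists, with folds of 6.70 in E47 and 8.15 in GFP, and in neither 4 h list.

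Fasl encodes Fas ligand, the death ligand of cytotoxic lymphocytes. It had 6 regions in E47 and 4 in GFP at 4 h and 5 and 6 at 16 h, of which 2 and 2 were E47-only and none was GFP-only at either time. The region 1273 bp from the gene, chr1:161779050-161779467, had the highest folds of the 13, with a fold of 11.3 at 4 h, a fold of 15.5 at 16 h, and strengths of 48.5 and 61.7. The nearest GFP region was 11503 bp away at 4 h and 11496 bp at 16 h. The other, chr1:161765984-161766278, had folds of 4.66 and 4.11 and lay 250 and 284 bp from a GFP region. Of the 1905 other genes with 5 regions, 0.945% held 2 or more of this kind. Fasl, like Cd27 below, was named because it held such regions, so this share is not a test.

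The Fasl start itself was called in no list. The Fasl region with the highest folds, chr1:161766506-161767587, was in all lists with folds of 25.3 and 24.4 with E47 and of 22.1 and 25.9 with GFP. Fas, the receptor of Fas ligand, had 2 regions, both in all 4 lists, and no vector-only region, with highest folds of 20.4 and 16.05 with E47 and of 20.9 and 23.4 with GFP.

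Cd27 encodes a costimulatory receptor of lymphocytes, and Cd70 its ligand. Cd27 had 5 regions in E47 and 4 in GFP at 4 h and 6 and 3 at 16 h, with 2 and 3 E47-only regions and 1 GFP-only region, at 16 h. The region chr6:125221992-125222598 lay 10188 bp from Cd27 and inside Vamp1, with folds of 8.79 and 9.05 and strengths of 51.5 and 52.2. The region chr6:125241486-125241895 lay 4565 bp from Cd27 on its other side, with folds of 5.86 and 7.36. Both were over 5 kb from any GFP region of their time, and of the 1505 other genes with 6 regions, 1.99% had 2 or more such regions. The Cd27 promoter was called in no list. Cd70 had 4 regions, 2 of them in all lists, with 1 GFP-only region at each time and no E47-only one.

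**Figure D4:**
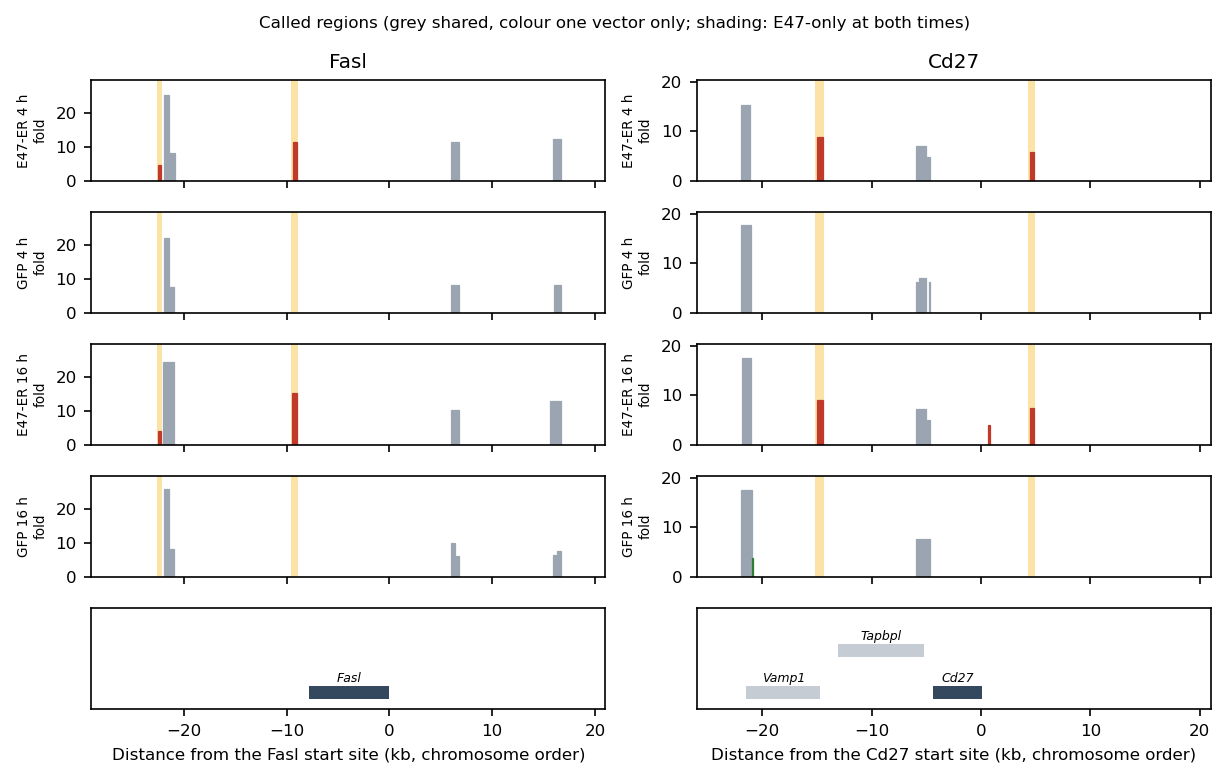
Called regions at Fasl (left) and Cd27 (right) by distance from the start site (kb, x axis), with the authors' fold enrichment (y axis) in each list. Grey bars were shared at that time, coloured bars were called with E47 (red) or GFP (green) alone, and shading marks, at each gene, its 2 regions called in both E47 lists alone.

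Further ligand genes had 1 such region each. At Tnfsf11, which encodes RANKL, the region chr14:78307391-78307573 lay inside the gene beside a promoter region called in all lists, with folds of 6.53 and 6.4, and a GFP region was 61 and 79 bp away. At Tnfsf9, which encodes the ligand of CD137, it was chr17:57096229-57096386, 8970 bp away and nearer to Tubb4a, with folds of 5.42 and 7.58 and a GFP region 88 and 86 bp away. At Tnfsf14, which encodes LIGHT, a ligand of HVEM and of the lymphotoxin β receptor, it was chr17:57180490-57180654, with folds of 5.18 and 5.94 and strengths of 1.87 and 4.64. At Cd40lg, the CD40 ligand gene, it was chrX:57228231-57228469, 4320 bp away and nearer to Arhgef6, with folds of 6.96 and 7.56. Those at Tnfsf11 and Tnfsf9 thus lay beside chromatin that was called in GFP too, while the nearest GFP regions were 4894 and 7828 bp away at Tnfsf14 and 9818 and 9862 bp away at Cd40lg.

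The promoter of Tnfsf14 was called in all lists, and its folds were 9.06 and 5.96 at 4 h in E47 and GFP, and 9.48 and 4.43 at 16 h. Folds belong to their own list and were not compared across lists.

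Among receptors, Ltbr had 1 of the 13, chr6:125328352-125328511, 14517 bp from Ltbr and inside Scnn1a, with folds of 5.005 and 5.83 and strengths of 2.32 and 6.90. Tnfrsf26, a receptor gene in a tandem cluster with Tnfrsf22 and Tnfrsf23, had 1 inside the gene, chr7:143621077-143621323, with folds of 5.03 and 5.54. Reads could be shared among these related genes, which was not tested, so this region is uncertain. The only region that was GFP-only at both times was counted for Tnfrsf10b, which encodes a receptor of TRAIL. It was chr14:69804080-69804216, 137 bp wide, 19738 bp from Tnfrsf10b and inside Rhobtb2, with folds of 3.86 and 3.78. Of the 13 E47-only regions, 8 had a member as their nearest gene and 4 lay inside it, and this GFP-only region had neither property.

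At single times the longer list, E47 at 4 h and GFP at 16 h, had the larger vector-only share. At 4 h, 45 of 177 superfamily regions in E47 were E47-only (25.4%, interval 19.2 to 32.5), close to 24.1% over all genes, and 10 of 147 in GFP were GFP-only (6.80%, 3.31 to 12.2), against 11.4%. At 16 h, 26 of 160 were E47-only (16.2%, 10.9 to 22.9), against 11.2%, and 31 of 165 GFP-only (18.8%, 13.1 to 25.6), against 30.1%. GFP-only shares were thus below the all-gene share at both times, and at 16 h the all-gene share lay outside the interval. For the E47-only shares, the all-gene value lay inside the interval at 4 h and at 16 h.

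By gene, 29 of 38 members had an E47-only region at 4 h (76.3%, against 55.5% of all genes with a region and 61.7% of other genes with as many regions). A GFP-only region at 4 h was found at 11 members (28.9%, against 28.9% and 34.7%). At 16 h, 20 members had an E47-only region (52.6%, against 26.8% and 31.8%) and 25 a GFP-only one (65.8%, against 62.0% and 68.2%). The gene counts therefore stood furthest from those of other genes for E47-only regions at 16 h, where 12 of 17 ligands (70.6%, against 32.6% of other genes with as many regions) and 8 of 21 receptors (38.1%, against 31.1%) had one. The 12 ligands count Tnf, Lta and Ltb, which share their E47-only regions, as separate genes. They also include Tnfsf13b, whose E47-only stretch is part of a region called in all lists.

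What was called at 4 h was followed to 16 h in the union of the lists. Of 41 superfamily regions that were E47-only at 4 h, 13 (31.7%, interval 18.1 to 48.1) were E47-only at 16 h too, against 17.4% of 9849 over all genes. Of 10 that were GFP-only at 4 h, 1 (10%, 0.253 to 44.5) was GFP-only at 16 h, against 53.5% of 4015. Of the others, 7 were called in no other list and 2 in both 16 h lists. Of the E47-only ones that were not, 15 were called in no other list, 9 in both 16 h lists and 4 in GFP alone at 16 h. Most superfamily chromatin did not separate the lists at all, since 106 of the 197 regions (53.8%, interval 46.6 to 60.9) were in all 4, against 50.4% over all genes.

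**Figure D5:**
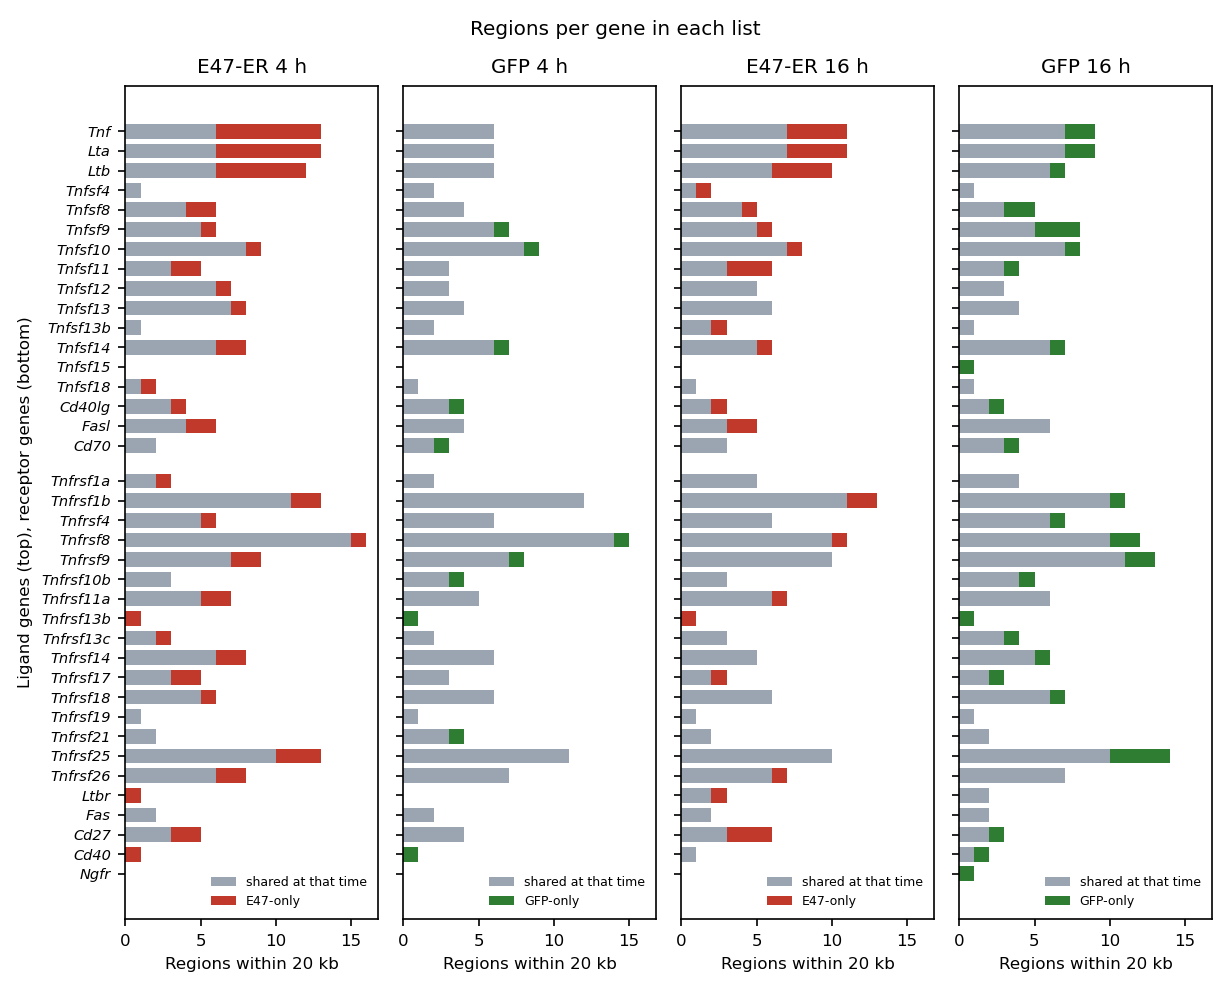
Number of regions within 20 kb (x axis) for each of the 38 genes, ligands above and receptors below, in the 4 lists. Grey parts were called with both vectors at that time and coloured parts with E47 (red) or GFP (green) alone. Tnf, Lta and Ltb have 6 or 7 E47-only regions at 4 h and 4 at 16 h, and no GFP-only region at 4 h.

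The other ligands held few or no regions that followed the vector at both times. Tnfsf10, which encodes TRAIL, had 11 regions, 6 of them in all lists, and 1 vector-only region in each list. Tnfsf8, the CD30 ligand gene, had 7 in the union, 3 of them in all lists. Its lists held 2 E47-only regions at 4 h, 1 E47-only region at 16 h and 2 GFP-only regions at 16 h, 1 of which was a stretch of a union region called in all lists. Tnfsf13, which encodes APRIL, and its neighbour Tnfsf12, which encodes TWEAK, had 4 and 3 regions, all in every list, and shared 1 weak E47-only summit region at 4 h beside a region called with both vectors. Tnfsf13b, which encodes BAFF, had 1, over its promoter and in all lists, with folds of 15.95 and 14.9 with E47 and of 14.6 and 15.8 with GFP. In E47 at 16 h this region was called as 3 stretches, 1 of which counted as E47-only.

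Tnfsf4, the OX40 ligand gene, had 2 regions, and the one in all lists had folds of 10.01 and 8.75 with E47 and of 8.67 and 9.52 with GFP. Tnfsf18, the GITR ligand gene, also had 2, and its shared region, 11985 bp from the gene, had folds of 21.5 and 21.6 with E47 and of 21.9 and 24.6 with GFP. Tnfsf15, which encodes TL1A, had 1 region, in GFP at 16 h alone, with a fold of 7.61. Its receptor gene Tnfrsf25 had 11 regions, most of them inside Espn or Plekhg5.

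Among costimulatory receptors, Tnfrsf8, the CD30 gene, had the most regions of any member, 16 in the union and 10 in all lists. Tnfrsf1b, the TNFR2 gene, had 13 with 8 in all lists, Tnfrsf9, the CD137 gene, 12 with 7, and Tnfrsf25, the DR3 gene, 11 with 7. Genes with a region had a median of 4 and the members a median of 5. The Tnfrsf25 window held 3 E47-only regions at 4 h and 4 GFP-only regions at 16 h. Of all its regions in the union, only the one over the promoter had Tnfrsf25 as its nearest gene. The 4 GFP-only regions lay inside Espn or Plekhg5. Of these 4, chr4:152124440-152124567 and chr4:152129536-152129800 also counted among the 3 E47-only regions at 4 h. Such a turn, from more E47-only to more GFP-only regions, was seen at 7 of 38 members, against 25.1% of all genes with a region. The Tnfrsf25 promoter was called in all lists, with folds of 8.33 and 8.61 with E47 and of 5.64 and 6.93 with GFP. Tnfrsf4 and Tnfrsf18, the neighbouring OX40 and GITR genes, shared the same 6 regions, 5 of which were in all lists. The Tnfrsf18 promoter was called in every list and the Tnfrsf4 promoter in none.

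A region of Tnfrsf1b just beyond the gene, chr4:145210485-145211698, was in all lists but stood at strengths of 76.1 and 27.4 in E47 and GFP at 4 h and of 72.5 and 40 at 16 h, with folds of 10.5, 5.37, 10.5 and 5.74 in that order. It was chosen after its values were seen. Tnfrsf14, which encodes HVEM, had 7 regions with 4 in all lists, and Tnfrsf11a, which encodes RANK, had 8 with 5, neither with a region of 1 vector at both times.

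Of the remaining receptors, Tnfrsf13c and Tnfrsf17, the genes for the BAFF receptor and BCMA, had 4 regions each and 2 in all lists. Tnfrsf13b, which encodes TACI, had 4 weak regions, each in a different list, and Cd40 had 3, none in all lists. The Cd40 start was covered in GFP at 16 h alone, by a region with a fold of 13.7 and a strength of 57.2, 1 of 2 GFP-only superfamily regions above the median of that list. Ngfr, the neurotrophin receptor gene, had 1 region, in GFP at 16 h. Tnfrsf21, the DR6 gene, had 3 with 2 in all lists, Tnfrsf19 had 1, in all lists, and Tnfrsf1a had 4 with 1 in all lists.

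The highest folds of the family stood at regions that all lists shared. In each list Tnfrsf13c ranked highest, with 26.5 and 24.6 at 4 h in E47 and GFP and 26.04 and 28.1 at 16 h, at a region 19527 bp away and nearer to Cenpm. Fasl came next in 3 lists and Tnfsf13, with 23.3, in GFP at 4 h. Tnfsf13 took the third place in E47, with 22.9 and 22.8, and Tnfrsf14 in GFP, with 22.2 and 25.1. The Tnfsf13 region lay 19725 bp away and inside Mpdu1, and that of Tnfrsf14 13771 bp away and nearer to Prxl2b. Against other genes with as many regions, the highest fold of a member was above the median for 11 of 36 members with a region in E47 at 4 h, 13 of 35 in GFP at 4 h, 11 of 36 in E47 at 16 h and 12 of 38 in GFP at 16 h. The median highest fold was 14.1, 13.3, 13.3 and 14.1 for members in that order, and 17.7, 16.8, 17.2 and 17.4 for all genes. The members' median was below that of all genes in each of the 4 lists.

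Genes for signal transducers of TNF receptors had fewer E47-only than GFP-only regions at both times, the same order as over all genes. Their difference from the ligands was not tested. Of 28 such genes, all with a region, 4 (14.3%) held an E47-only one, against 19.2% of other genes with as many regions, and 7 (25.0%) a GFP-only one, against 22.8%. The E47-only ones were at Birc2, Birc3, Otulin and Ripk3, of which Birc2 and Birc3 are neighbouring genes for inhibitors of apoptosis that act at TNF receptors. The GFP-only ones were at Traf3, Traf4, Traf5, Ripk3, Cflar, Rbck1 and Map3k5. Cflar, which encodes the inhibitor of caspase 8 known as cFLIP, had 6 GFP-only and 2 E47-only regions at 16 h. The 80 other genes with 15 regions, its number, had means of 4.19 and 1.21. Tnfaip3, the gene of the NF-κB inhibitor A20, had 2 E47-only regions at 4 h and none at 16 h. The 2220 other genes with 4 regions, its number, had means of 0.706 and 0.244. As shares of regions, 3 of 203 (1.48%, interval 0.306 to 4.26) were E47-only and 8 (3.94%, 1.72 to 7.62) GFP-only at both times. Over all genes these shares were 3.33% and 4.18%.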

How the data were processed

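ATAC-seq was measured in 8 samples, 2 in each of 4 groups, taken from the sample titles. The submitters' processing notes name mm10 as the build and, as tools, MACS2, Bowtie2, DiffBind and cutadapt, without versions. The authors deposited 1 peak list per group, named per the labels as a conservative list by irreproducible discovery rate, with a score (540 to 1000), a fold enrichment (the ratio of a summit's signal to its local background) and −log10 p per summit. The deposited −log10 p served to rank regions within a list, and the deposited fold only to describe them. The score was not used further. Read depth is not stated, so precision is given as exact (Clopper-Pearson) binomial intervals at 95%, which cover counting error only.

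Overlapping lines of a list were merged into regions, and regions of different lists that overlapped by 1 bp or more were joined into a union. Genes came from a RefSeq table of GRCm38.p6. A region counted for every protein-coding gene within 20 kb of 1 of its summits, so neighbouring genes share regions. "Other genes with as many regions" are all non-members with the same number of union regions, averaged over the members. The members and lists were chosen with earlier results of these data known. Named in full, by rule, were members with a region vector-only at both times, those with most vector-only regions at a time, and the 3 highest folds per list. No genome sequence was used, so E-boxes were searched in RefSeq promoters only and not in regions. Code was tested on simulated data. Alternatives were other overlaps, gaps, windows, nearest-gene assignment, single summits, stronger regions and equal list length, and 2 were added after the data were seen. The versions were scipy 1.17.1, matplotlib 3.10.9, pandas 2.3.3 and numpy 2.4.6 under Python 3.11.15.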

Additional observations from a re-analysis of the deposited data

Results flagged for a closer look

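At 7 of the 38 genes the balance of vector-only regions (E47-only minus GFP-only) turned between the times, from more E47-only regions at 4 h to more GFP-only regions at 16 h, and at none the other way. This was 18.4% of the members, against 25.1% of all genes with a region and 30.0% of other genes with as many regions, so the share of members was the lower one. The balance was 2 at 4 h and -1 at 16 h for Tnfsf8 and for Tnfrsf14, 1 and -2 for Tnfrsf9, and 3 and -4 for Tnfrsf25. It was 1 and -1 for Tnfrsf13c, and also for Tnfrsf4 and Tnfrsf18, which share their regions. The values of Tnfrsf25 do not stand for separate regions. Its regions chr4:152124440-152124567 and chr4:152129536-152129800, both inside Espn, counted as E47-only at the first time and as GFP-only at the second. Both were called in the longer list of each time and missing from the shorter one. E47 was the longer list at 4 h and GFP at 16 h. With a single list per group, this turn was not tested.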

How the results depend on the processing

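No paired analysis was possible because each group was deposited as 1 list, and for the same reason no replicate could be left out. Over 11 alternatives, the GFP-only share at 4 h, at 16 h and at both times stayed below that of all genes in 11, 11 and 11, and the E47-only share at 16 h stayed above in 11. The E47-only share at both times was above in 10, the exception being lists of equal length (4.22% against 4.50%, and 5.08% with the nearest gene in addition), and at 4 h it was above in 5. With lists of equal length, the E47-only share at 4 h was 14.6% and the GFP-only share at 16 h 8.46%, and with the nearest gene in addition they were 15.5% and 6.52%. Among regions above the median of their list, the shares were 3.19% and 0% at 4 h, 2.44% and 2.38% at 16 h, and 1.02% and 0% at both times for E47-only and GFP-only regions. The GFP-only share at both times was 0% within gene bodies, within 5 kb and by nearest gene, since its 1 region lay farther out and inside another gene. Without Tnf, Lta and Ltb, the E47-only share at both times was 5.52%. For the shares at both times, each setting named above counted fewer than the 197 regions of the main one. The window of 50 kb counted 297 and single summits 398. The unknown depth limits every region that is weak in 1 list and missing from another.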

Other observations

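Of 9 genes outside the 38, superfamily genes and the adaptor gene Edaradd, 7 had a region. Edar and Tnfrsf11b, the genes of the ectodysplasin receptor and of osteoprotegerin, the decoy receptor of RANKL, had none in any list. Tnfrsf12a, the gene of the TWEAK receptor, had 3 regions in E47 and 4 in GFP at 4 h, then 2 and 6 at 16 h, and 2 of its 7 regions were GFP-only at both times. The E47-only region inside Tnfrsf26 also lay in the window of its neighbour Tnfrsf22, which had no other one. Edaradd, the gene of an adaptor of the ectodysplasin receptor, had 9 regions, of which 2 were E47-only at 4 h and 3 GFP-only at 16 h.

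With regions up to 200 bp apart counted as shared, 10 regions were E47-only at both times. The regions at the Lta start, inside Lst1, at Tnfsf11 and at Tnfsf9 then counted as shared with GFP, which left 9 of the 13, the Tnf start among them. The other was chr17:35194312-35195130 at the Ltb start, where the region of E47 at 4 h and that of E47 at 16 h were joined.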
